A study of Mus musculus with 22 samples.

Results

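Fut2 encodes the alpha-1,2-fucosyltransferase that adds the terminal fucose of H-type sugar chains in the gut epithelium. It was chosen from its measured values in these libraries, by its symbol, and is 1 of 46603 genes in the deposited tables and 1 of the 15763 that passed the filter on low counts. Its own levels, its differences between groups and its co-variation with other genes are therefore given as a description, with no test. Intestinal tissue came from wild-type male C57BL/6 mice, 7 weeks old at the start, that ate one of 3 diets for 7 weeks. All diets held 8% fibre by weight and gave 35% of the energy as fat, 20% as protein and 45% as carbohydrate, per the labels. The fibre was cellulose (groups Control and PFOS), inulin (Inulin and Inulin_PFOS) or pectin (Pectin and Pectin_PFOS). Cellulose is hardly fermented by gut bacteria, whereas inulin and pectin are. PFOS (perfluorooctanesulfonic acid), a persistent fluorinated surfactant, was added to the water that the groups named for it drank, at 3 µg/kg/day. Control stands for cellulose without PFOS. The general treatment note names PFOS for every sample, so exposure was taken from the title and the sample's own treatment value. The Inulin and Inulin_PFOS groups had 3 libraries each and the others 4 each, 22 in all. The gut segment is not given in the sources used here. Nothing in the labels states outright that each library is a separate animal, so p-values measure the spread between these libraries.

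As background, fucosylated chains on mucins and on the surface of epithelial cells are food and attachment sites for gut bacteria. In mice, Fut2 in the small intestine is induced by bacteria, and the cytokine interleukin 22, made by innate lymphoid cells, is a known signal for it. Epithelial cells answer the same signal by making antimicrobial proteins of the Reg3 family and serum amyloid A. The sugar donor, GDP-fucose, is made from GDP-mannose or salvaged from free fucose, is carried into the Golgi, and is used by a family of fucosyltransferases. Because whole tissue was sequenced, a difference in the number of cells of a type and a difference in RNA per cell cannot be told apart.

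The deposited coordinates place Fut2 (ENSMUSG00000055978) on chromosome 7 from 45648595 to 45666308 (GRCm38, minus strand). In GENCODE M21 its coding sequence, 1041 bases, lies within 1 exon (45650306 to 45651346), and no annotated gene overlaps the locus. Its paralogues lie on both sides, Fut1 from 45617606 and Sec1 from 45677689. The stretches below, read on the minus strand in the coding sense, are shown because they bear on whether reads can be told apart between these genes. Capitals mark the longest run that is identical in Fut2 and the paralogue, and the lower-case letters are the Fut2 bases on either side of it.
Fut2 against Sec1, chr7:45650781-45650990: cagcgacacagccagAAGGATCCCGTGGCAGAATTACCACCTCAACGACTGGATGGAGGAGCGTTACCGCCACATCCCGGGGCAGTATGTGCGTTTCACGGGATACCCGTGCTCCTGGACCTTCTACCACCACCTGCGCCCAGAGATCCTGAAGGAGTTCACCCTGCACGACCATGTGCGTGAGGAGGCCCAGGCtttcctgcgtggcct
Fut2 against Fut1, chr7:45650718-45650771: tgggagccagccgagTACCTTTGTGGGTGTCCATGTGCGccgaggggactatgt
Fut2 and Sec1 shared 79.9% of aligned coding bases and an unbroken identical run of 180 bases (coding positions 372 to 551 of Fut2). Fut2 and Fut1 shared 64.6%, with a longest run of 24 bases. A read that lies wholly inside the longer run cannot be assigned to Fut2 or Sec1 by its sequence. The estimated counts carry a trace of this. In 4 libraries the Fut2 count was fractional, and in each of these 4 the sum of Fut2 and Sec1 was a whole number within 0.005. In Inulin replicate 2, for example, 803.99 counts for Fut2 and 3.01 for Sec1 made 807. The amounts at stake were small. Sec1 reached at most 8 counts in a library and summed to 31 counts over all libraries, against 11483 for Fut2, and it took at most 5.88% of the counts of the pair. Fut1 reached at most 12 counts.

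Fut2 was low on cellulose and higher on both fermentable fibres, with large differences between libraries of a group. Levels are given in CPM (counts scaled to a common library size) after TMM (trimmed mean of M values) scaling. In Control the 4 libraries read 1.63, 3.77, 11.5 and 4.76 CPM. In PFOS they read 4.20, 1.59, 5.15 and 0.767 CPM. The cellulose libraries thus spanned 15-fold, and the groups with and without PFOS overlapped. In Inulin the values were 7.59, 44.7 and 8.92 CPM, so that replicate 2 stood well above the others. In Inulin_PFOS they were 69.3, 70.0 and 59.2 CPM. All of these lay above every Inulin, Control, PFOS and Pectin library. In Pectin the 4 libraries read 29.4, 6.94, 48.3 and 40.3 CPM, replicate 2 being the low one. In Pectin_PFOS they read 48.3, 104.1, 23.4 and 39.2 CPM, with replicate 2 the highest of all 22 libraries. Fut2 was counted 16 times in the lowest library (PFOS replicate 4) and 1778 times in the highest, a 136-fold range of CPM.

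**Figure D1:**
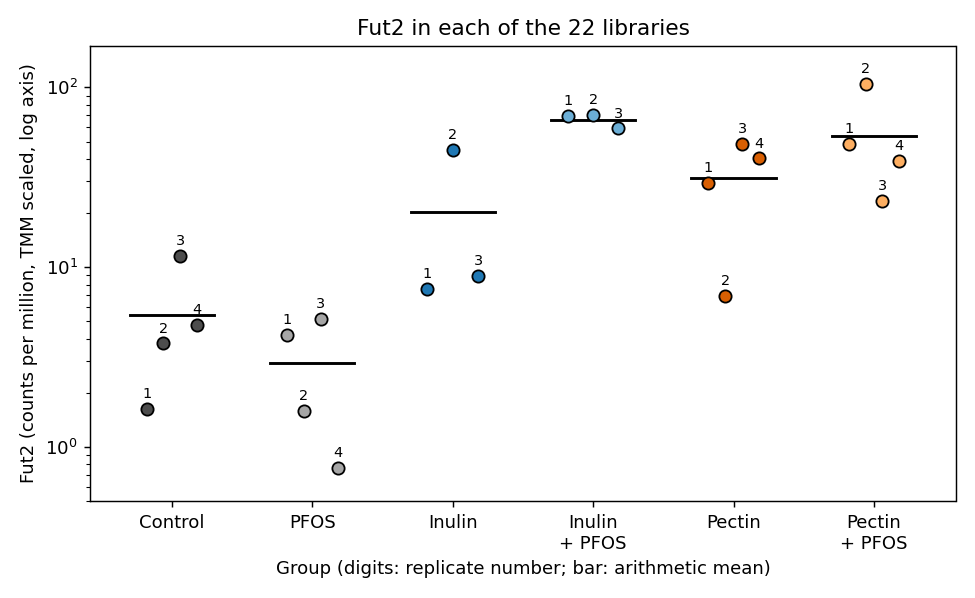
Fut2 in CPM on a log axis, by group, with a point for each of the 22 libraries, its replicate number above it and the group mean as a bar. The 8 cellulose libraries lie between 0.767 and 11.5 CPM, and the 3 Inulin_PFOS libraries between 59.2 and 70.0 CPM.

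Ordered by mean, the groups ran from PFOS (2.93 ± 2.08 CPM, SD, n = 4) and Control (5.42 ± 4.28, n = 4) through Inulin (20.4 ± 21.1, n = 3) and Pectin (31.2 ± 18.0, n = 4) to Pectin_PFOS (53.8 ± 35.1, n = 4) and Inulin_PFOS (66.2 ± 6.06, n = 3). Every group overlapped its neighbours in this order. Pectin_PFOS and Inulin_PFOS overlapped, since Pectin_PFOS replicate 2 exceeded all 3 Inulin_PFOS libraries. Of the 15 pairs of groups, 8 did not overlap, and 6 of these set a cellulose group against a group on inulin or pectin. The other two were Inulin_PFOS against Inulin and Inulin_PFOS against Pectin. The Inulin_PFOS group was also the most even, with a coefficient of variation of 9.16% against 57.5% to 103% in the other 5 groups. As length-scaled values, which can be set beside those of other genes, Fut2 averaged 2.38 TPM (a transcript's share of the library after division by length) in Control and 1.63 in PFOS. It averaged 8.96 TPM in Inulin, 24.6 in Inulin_PFOS, 12.0 in Pectin and 21.4 in Pectin_PFOS.

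Fut2 was among the most variable genes of the tissue. Its SD over the 22 libraries was 2.03 on the log2 CPM scale, where the median tested gene had 0.47, and 49 of 15763 genes varied more. Much of that lay between groups, but the pooled SD within groups was still 1.1, against a median of 0.39, and 3.48% of tested genes had a larger one. So a group mean of 3 or 4 libraries describes Fut2 less firmly than it does most genes.

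The fitted log2 differences of Fut2, given with their standard errors (SE) and no test, followed the same order. Against Control, Fut2 was 1.91 ± 0.75 higher in Inulin and 2.53 ± 0.72 higher in Pectin. Against PFOS, it was 4.49 ± 0.81 higher in Inulin_PFOS and 4.19 ± 0.78 higher in Pectin_PFOS, which is 22.5-fold and 18.3-fold. Among the 15763 tested genes these were the differences of rank 21 and 22, counted from the highest. The PFOS comparison gave different signs on different diets. On cellulose the PFOS group was lower by a log2 difference of −0.88 ± 0.73, and 5 of 16 pairs of libraries had the PFOS library higher. On inulin the PFOS group was higher by 1.70 ± 0.80, in 9 of 9 pairs of libraries. On pectin it was higher by 0.78 ± 0.68, in 10 of 16 pairs. The difference between the PFOS effect on inulin and that on cellulose was 2.58 ± 1.08, and between pectin and cellulose 1.67 ± 0.99. Averaged over the 3 diets, the PFOS groups were higher by 0.53 ± 0.42. The comparisons of a fibre with Control share the Control libraries, and those with PFOS share the PFOS libraries.

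**Figure D2:**
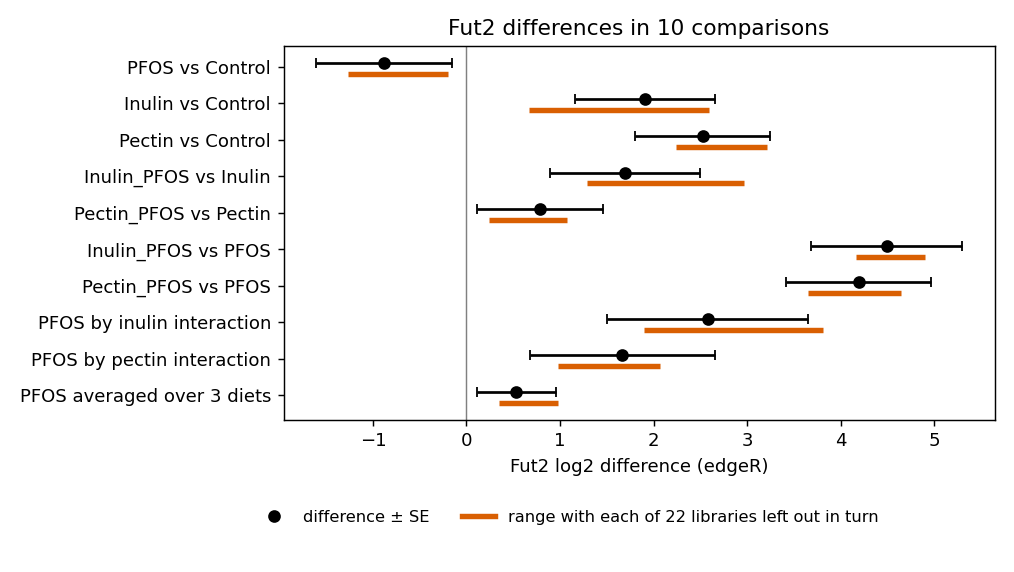
Log2 difference of Fut2 in the 10 comparisons (points, with bars of 1 SE), and beneath each the range obtained when each of the 22 libraries is left out in turn (orange). No range crosses 0, and the range for Inulin against Control runs from 0.67 to 2.60.

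Single libraries carried part of these differences. Without Inulin replicate 2 the Inulin minus Control difference fell to 0.67 and the Inulin_PFOS minus Inulin difference grew to 2.97. Without Control replicate 3, the highest of the cellulose libraries, the PFOS minus Control difference was −0.20. Without Pectin_PFOS replicate 2 the Pectin_PFOS minus Pectin difference was 0.24. The sign of Fut2 was kept in all 10 comparisons under all 31 alternative settings. Fut2 is an epithelial transcript, and the mean log2 CPM of epithelial markers differed between libraries, from 9.67 (Control replicate 4) to 11.05 (Pectin_PFOS replicate 1). Relative to the mean of 8 epithelial markers (Epcam, Cdh1, keratins and others), the log2 difference was 1.99 for Inulin_PFOS minus Inulin, and for Pectin_PFOS minus Pectin it was 0.35.

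The libraries were of even depth, with 17613297 to 20261357 counts each. Mitochondrial genes took 2.85% to 14.9% of the counts. Pectin_PFOS replicate 1 had the fewest detected genes (12927) and the smallest scaling factor. Without it, the Fut2 difference was 4.24 for Pectin_PFOS minus PFOS and 0.83 for Pectin_PFOS minus Pectin. Other genes were tested with the quasi-likelihood test of edgeR, with Benjamini-Hochberg adjustment over all 15763 genes, and were called at an adjusted p under 0.05. At that threshold 1.03% of genes were called higher and 0.958% lower in Pectin against Control. The shares were 1.84% and 0.799% in Inulin_PFOS against PFOS, and 7.7% and 8.33% in Pectin_PFOS against PFOS. They were 0.0698% and 0.0888% in Inulin_PFOS against Inulin, and 11.4% and 9.43% in Pectin_PFOS against Pectin. Averaged over the diets, PFOS gave 0.108% and 0.0508%. In PFOS against Control, Inulin against Control and both interactions 0.0% were called by edgeR. Unadjusted p under 0.05 was reached by 842, 3257, 3099 and 1953 genes in those 4, and DESeq2 called 1, 783, 659 and 119.

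These shares depend on the scaling. When libraries were scaled by their totals alone, the median log2 difference of all genes moved from −0.03 to −0.41 in Pectin_PFOS against PFOS and from −0.01 to −0.34 in Inulin_PFOS against PFOS. In Pectin_PFOS against Pectin it moved from −0.06 to −0.27. Of the genes called, 48% were higher in Pectin_PFOS against PFOS with TMM and 7.81% with totals. The split moved from 69.7% to 14.1% in Inulin_PFOS against PFOS, from 54.6% to 19.4% in Pectin_PFOS against Pectin, and from 51.8% to 40.5% in Pectin against Control. For the PFOS average it moved from 68% to 46.7%. On deposited TPM values (limma, pseudocount 1) the share was 29.5% in Pectin against Control, 4.64% in Inulin_PFOS against PFOS and 6.05% in Pectin_PFOS against PFOS. It was 58.3% in Inulin_PFOS against Inulin, where TMM gave 44%. The Fut2 differences of Inulin_PFOS and Pectin_PFOS against PFOS, 4.49 and 4.19, are large beside these shifts. On TPM values with pseudocount 1 they read 3.40 and 3.02. Those of PFOS against Control (−0.88 ± 0.73) and Pectin_PFOS against Pectin (0.78 ± 0.68) are near the size of their SE. Small positive differences of other genes are not large beside the shifts, and they are given relative to TMM scaling.

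Among the genes that make, move, attach and remove fucose, Gmds stood nearest to Fut2. Gmds encodes GDP-mannose 4,6-dehydratase, the first step from GDP-mannose to GDP-fucose. In Control its 4 libraries read 79.8, 56.8, 105 and 95.7 CPM, and in PFOS 77.8, 37.0, 98.6 and 75.1 CPM. In Inulin they read 96.6, 280 and 91.5 CPM, with the same replicate 2 above the others as for Fut2. In Inulin_PFOS they read 553, 354 and 416 CPM. In Pectin the values were 420, 330, 333 and 505 CPM, and in Pectin_PFOS 306, 538, 273 and 338 CPM. The Pectin, Inulin_PFOS and Pectin_PFOS libraries thus lay above all cellulose libraries. Pectin replicate 2, low for Fut2, was also the lowest of its group for Gmds, but there it lay beside replicate 3 (330 and 333 CPM). Gmds rose in Pectin against Control by 2.24 ± 0.35 on the log2 scale (edgeR adjusted p = 0.00901). It rose in Inulin_PFOS against PFOS by 2.61 ± 0.37 (edgeR adjusted p = 0.00181) and in Pectin_PFOS against PFOS by 2.33 ± 0.36 (edgeR adjusted p = 0.000868). These 3 calls were kept in all 30 other settings. The difference for Inulin_PFOS against Inulin was 1.499 ± 0.40 and missed the threshold (edgeR adjusted p = 0.0964), and for Pectin_PFOS against Pectin it was −0.13 ± 0.34. Over the 22 libraries Gmds had r = 0.90 with Fut2 (rho = 0.89) on log2 CPM, and r = 0.64 on deviations from the group means. Such values share libraries, scaling and diet.

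The rest of the donor pathway moved less. Tsta3, the second enzyme of the same route, lay between 65.2 and 107 CPM in all 22 libraries and was called in none of the comparisons. Fuk and Fpgt, the salvage enzymes that act on free fucose, were not called either, and Fuk read 0.89 ± 0.32 higher in Pectin against Control (edgeR adjusted p = 0.147). Slc35c1, the Golgi carrier of GDP-fucose, was not called. Its relative Slc35c2 rose in Pectin_PFOS against Pectin (1.00 ± 0.29, edgeR adjusted p = 0.022), a call lost under library totals (edgeR adjusted p = 0.0769), on TPM values, and without Pectin replicate 1 or Pectin_PFOS replicate 3.

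The other fucosyltransferases lay farther from Fut2 than Gmds did, with r between −0.55 (Pofut1) and 0.49 (Fut7) over the 22 libraries. Fut10 had r = −0.51 and Fut11 r = −0.35. Fut4, which makes Lewis-type alpha-1,3 linkages, read higher with PFOS on each diet, but was not called on cellulose or inulin. The difference was 0.692 ± 0.235 in PFOS against Control (edgeR adjusted p = 0.822). In Inulin_PFOS against Inulin it was 0.668 ± 0.273 (edgeR adjusted p = 0.202). Fut4 was called higher averaged over the diets (0.79 ± 0.14, edgeR adjusted p = 0.0225) and in Pectin_PFOS against Pectin (1.02 ± 0.24, edgeR adjusted p = 0.00847). In Inulin the Fut4 values were 11.4, 11.5 and 10.9 CPM, and in Inulin_PFOS 20.8, 16.3 and 16.5 CPM. In Pectin they were 8.88, 9.52, 10.8 and 15.9 CPM, and in Pectin_PFOS 34.3, 21.2, 19.0 and 17.0 CPM. In Control they were 14.8, 10.8, 12.0 and 11.7 CPM, and in PFOS 25.8, 24.4, 14.7 and 14.7 CPM. On inulin and on pectin the exposed and unexposed libraries did not overlap, and on cellulose only Control replicate 1 lay above the lowest PFOS values. The averaged call was lost under library totals (edgeR adjusted p = 0.0916), on TPM values, and without PFOS 1, Inulin 1, Inulin 3, Inulin_PFOS 1, Pectin 1 or Pectin 2 (edgeR adjusted p up to 0.0859). Its r with Fut2 was 0.15 over all libraries, 0.57 over the 14 inulin and pectin libraries and −0.31 over the 8 cellulose libraries. Fut10 fell in Pectin_PFOS, by 1.28 on the log2 scale against Pectin (edgeR adjusted p = 0.00754) and by 1.57 against PFOS (edgeR adjusted p = 0.00246), from 1.68 ± 0.30 CPM in Pectin and 2.06 ± 0.16 in PFOS to 0.692 ± 0.094 (SD, n = 4 each). The first of these calls was lost on TPM values with a pseudocount of 1. Fut7, Fut8, Fut11, Pofut1 and Pofut2 were called in none of the comparisons. Fut8 adds core fucose to N-glycans, and Pofut1 adds fucose to the EGF repeats of Notch. Fut1, Sec1 and Fut9 were too low to test, Fut9 reaching 1 count.

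The fucosidases that remove fucose in the lysosome and outside the cell were higher in Pectin_PFOS. Fuca1 rose by 1.05 ± 0.21 against PFOS (edgeR adjusted p = 0.00406) and by 0.76 ± 0.21 against Pectin (edgeR adjusted p = 0.017). Fuca2 rose by 1.00 ± 0.25 against PFOS (edgeR adjusted p = 0.0132) and by 0.71 ± 0.25 against Pectin (edgeR adjusted p = 0.0488). Fuca1 was also called in Inulin_PFOS against PFOS (0.84 ± 0.22, edgeR adjusted p = 0.0468). All of these except Fuca1 in Pectin_PFOS against PFOS were lost under library totals, and every one was lost on TPM values, where the Fuca1 difference of Pectin_PFOS against PFOS was 0.31. In Pectin_PFOS against Pectin, Fuca1 was also lost without Pectin 1, Pectin 2 or Pectin_PFOS 1, and Fuca2 in 16 of 22 omissions of a library. Against PFOS, Fuca2 was lost without Pectin_PFOS 1, and Fuca1 in Inulin_PFOS was lost in 18 of 22 omissions. Fuca1 had r = 0.77 with Fut2 and Fuca2 r = 0.61.

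Over the 18 other listed fucose genes, 15 were tested. In Pectin against Control 1 was called higher and 0 lower, in Inulin_PFOS against PFOS 2 and 0, and in Pectin_PFOS against PFOS 3 and 1. In Pectin_PFOS against Pectin the counts were 4 and 1, and for the PFOS average 1 and 0. Over all genes the shares higher and lower in Pectin_PFOS against Pectin were 11.4% and 9.43%, and in Pectin_PFOS against PFOS 7.7% and 8.33%. In Pectin against Control they were 1.03% and 0.958%, in Inulin_PFOS against PFOS 1.84% and 0.799%, and for the PFOS average 0.108% and 0.0508%. The list's median log2 difference was 0.26 in Pectin_PFOS against PFOS and 0.11 in Pectin against Control, beside −0.03 and −0.08 over all genes. In Inulin_PFOS against Inulin 0 were called by edgeR, with 4 at an unadjusted p under 0.05 and 1 called by DESeq2. In Inulin against Control 0 were called, with 2 at an unadjusted p under 0.05 and 1 by DESeq2. In PFOS against Control 0 were called, with 1 at an unadjusted p under 0.05 and 0 by DESeq2. The single call in Pectin against Control was Gmds.

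**Figure D3:**
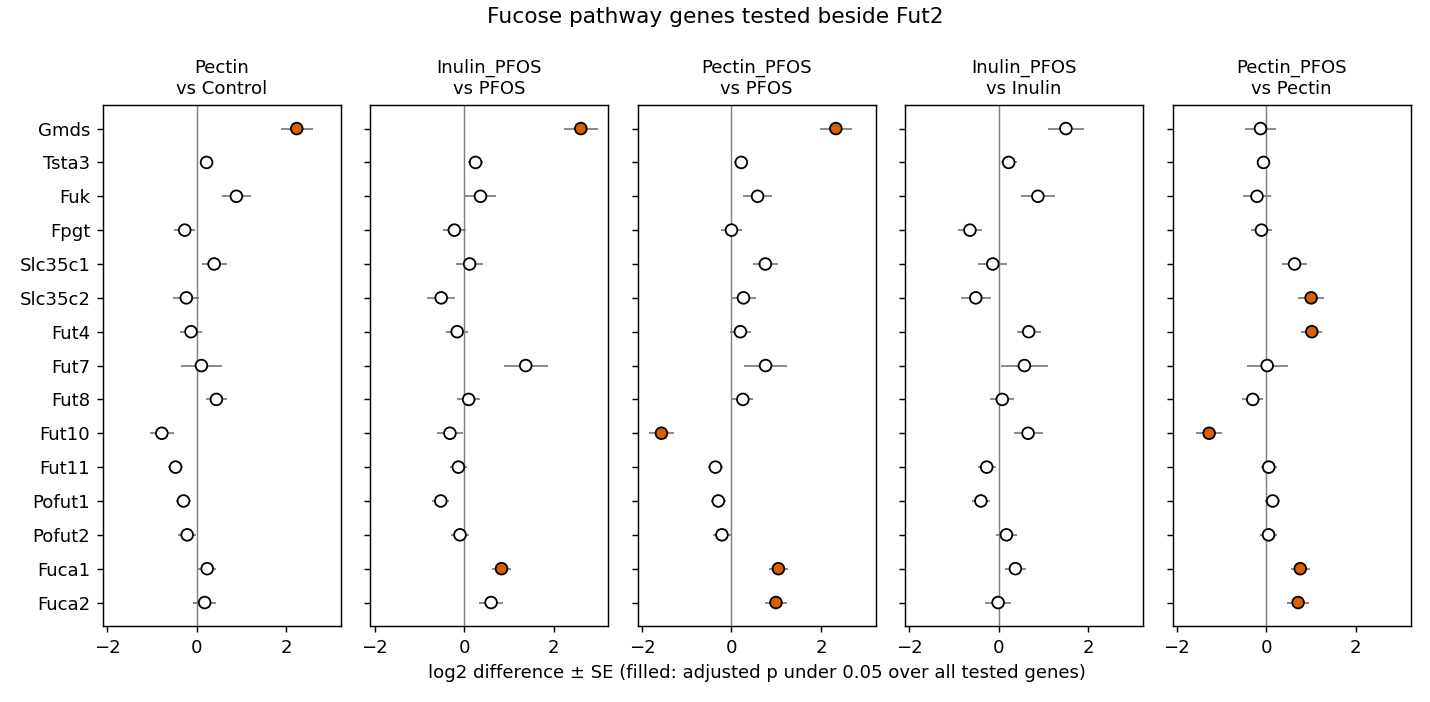
Log2 difference with SE for the 15 tested fucose genes in 5 comparisons, in the order donor synthesis, salvage, Golgi carriers, transferases and fucosidases. Filled points passed the threshold. Gmds reads between 2.24 and 2.61 in the first 3 panels and −0.13 in the last.

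Fut2 acts on galactose-ended chains, and several enzymes that build or extend such chains varied with it. B3galt5 adds the beta-1,3-linked galactose of type 1 chains, a preferred acceptor for Fut2. Its libraries read 0.930, 2.60, 19.0 and 6.15 CPM in Control and 1.98, 0.675, 4.79 and 1.44 CPM in PFOS. They read 0.963, 50.3 and 12.3 CPM in Inulin and 178, 119 and 94.7 CPM in Inulin_PFOS. In Pectin they read 44.5, 10.5, 174 and 38.8 CPM, and in Pectin_PFOS 40.7, 111, 20.6 and 34.9 CPM. The libraries that stood out for Fut2 stood out here too: Control replicate 3 and Inulin replicate 2 were the highest of their groups and Pectin replicate 2 the lowest. B3galt5 rose in Inulin_PFOS against PFOS (5.87 ± 1.19, edgeR adjusted p = 0.0137) and in Pectin_PFOS against PFOS (4.54 ± 1.11, edgeR adjusted p = 0.0118). The first of these was lost without PFOS replicate 1, PFOS replicate 2 or Inulin_PFOS replicate 1, with an adjusted p of at most 0.0689. Its r with Fut2 was 0.94, and 0.84 on deviations from the group means. It was 0.87 over the 8 cellulose libraries and 0.88 over the 14 others.

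B3gnt7, which extends sulphated lactosamine chains, and Chst4, a sulphotransferase of such chains, followed Fut2 on the fermentable fibres. B3gnt7 averaged 8.83 ± 0.99 CPM in Control and 11.8 ± 2.73 in PFOS (SD, n = 4 each). It averaged 42 ± 50.5 in Inulin and 180 ± 51.5 in Inulin_PFOS (n = 3 each), and 60.6 ± 24.5 in Pectin and 119 ± 64.4 in Pectin_PFOS (n = 4 each). B3gnt7 rose in Pectin against Control (2.78 ± 0.54, edgeR adjusted p = 0.0191), in Inulin_PFOS against PFOS (3.93 ± 0.58, edgeR adjusted p = 0.00257) and in Pectin_PFOS against PFOS (3.33 ± 0.55, edgeR adjusted p = 0.0015). The call against Control was lost without Pectin replicate 3 (edgeR adjusted p = 0.0535). Chst4 rose in Inulin_PFOS against PFOS (2.34 ± 0.44, edgeR adjusted p = 0.00887) and in Pectin_PFOS against PFOS (2.01 ± 0.42, edgeR adjusted p = 0.00537). The first Chst4 call was lost without Inulin_PFOS replicate 1 (edgeR adjusted p = 0.0501). On the 14 inulin and pectin libraries B3gnt7 had r = 0.90 with Fut2 and Chst4 r = 0.88. On the 8 cellulose libraries the values were −0.03 and −0.21, although Fut2 spanned 15-fold there. In those 8 libraries B3gnt7 stayed between 7.64 and 14.2 CPM.

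**Figure D4:**
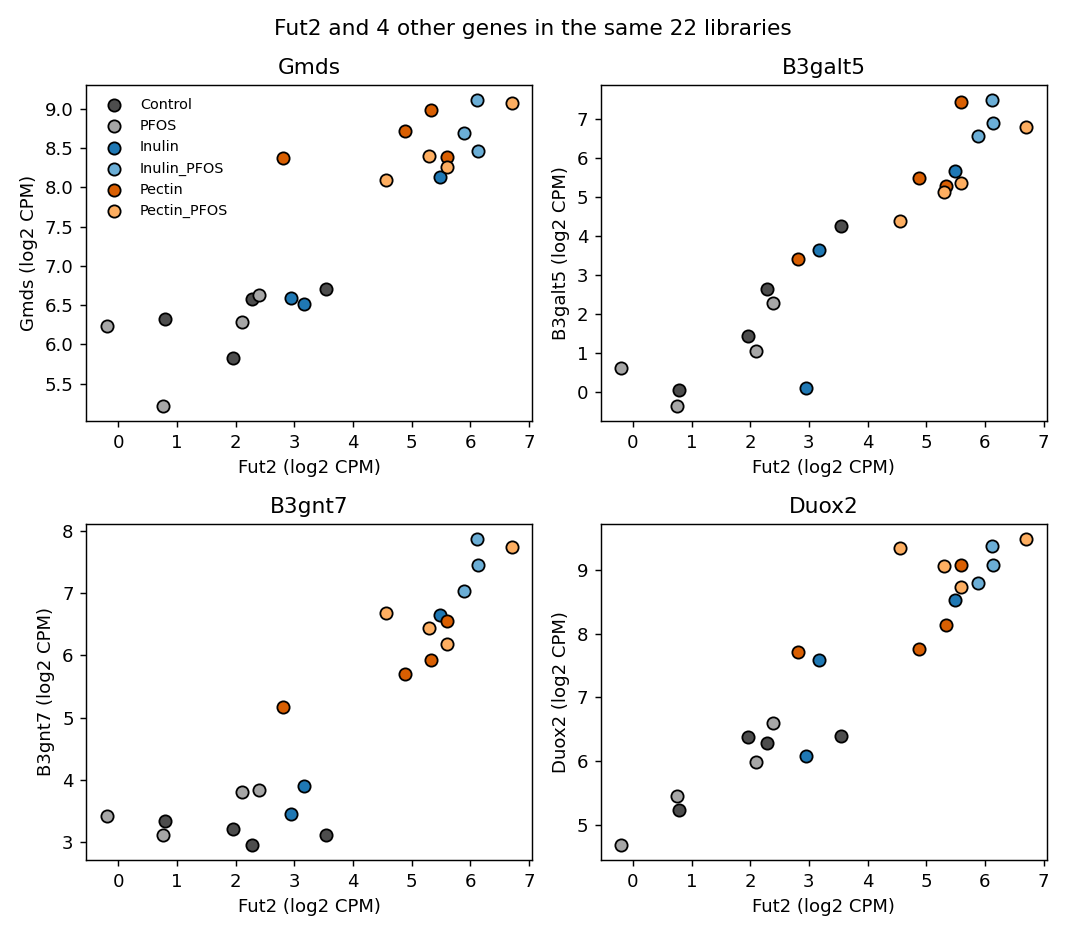
Log2 CPM of Gmds, B3galt5, B3gnt7 and Duox2 against that of Fut2, with a point for each of the 22 libraries, coloured by group. B3galt5 and Duox2 climb with Fut2 along its whole range (r = 0.94 each), while B3gnt7 is level across the cellulose libraries.

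Of the 32 listed glycosyltransferases and sulphotransferases that act on other positions or steps, 29 were tested. In Inulin_PFOS against PFOS 4 were called higher and 0 lower, in Pectin_PFOS against PFOS 7 and 1, in Pectin against Control 1 and 0, and in Pectin_PFOS against Pectin 6 and 2. Over all genes the shares were, in that order, 1.84% and 0.799%, 7.7% and 8.33%, 1.03% and 0.958%, and 11.4% and 9.43%. The balance in the list rested on the scaling. Under library totals the counts were 4 and 3 in Pectin_PFOS against PFOS, 2 and 5 in Pectin_PFOS against Pectin, and 3 and 2 in Inulin_PFOS against PFOS. On TPM values they were 3 and 3, 3 and 0, and 3 and 2. The list's median log2 difference was 0.45 in Pectin_PFOS against PFOS and 0.26 in Inulin_PFOS against PFOS, where all genes had −0.03 and −0.01. B4galt1, which adds beta-1,4-linked galactose to make type 2 chains, rose by 1.04 ± 0.23 in Inulin_PFOS against PFOS (edgeR adjusted p = 0.0225) and by 0.99 ± 0.22 in Pectin_PFOS against PFOS (edgeR adjusted p = 0.00713). The first was lost under library totals and without any 1 of the 7 libraries of its groups, and both were lost on TPM values. Gcnt1, which branches core 2 O-glycans, had r = 0.78 with Fut2 and was not called. St3gal6, a sialyltransferase that caps galactose at the end of a chain, ran the other way with r = −0.77, and its difference in Inulin_PFOS against PFOS was −0.71 ± 0.29 (edgeR adjusted p = 0.175). B3gnt3 rose (1.16 ± 0.23, edgeR adjusted p = 0.00454) in Pectin_PFOS against Pectin, and so did B4galnt2 (1.51 ± 0.41, edgeR adjusted p = 0.0156), whose call was lost without Pectin 1, Pectin 2 or Pectin_PFOS 1. B4galnt2 adds the N-acetylgalactosamine of the Sd(a) antigen to sialylated chains. Its r with Fut2 was 0.24. B3gnt3, B4galt4 and St6galnac6 (the last lower) passed both in this comparison and in Pectin_PFOS against PFOS. Under library totals and on TPM values B4galt4 was lost in both comparisons and B3gnt3 in the second. St6galnac6 was lost in the first on TPM values, with no filter and with only the groups compared. Single libraries also ended these calls: for B3gnt3 against PFOS they were PFOS 3, PFOS 4 or Pectin_PFOS 1, and for St6galnac6 against Pectin they were Pectin 2, Pectin 4, Pectin_PFOS 1 or Pectin_PFOS 4. B4galt4 was lost without PFOS 4 or Pectin_PFOS 1 against PFOS, and in 6 of 22 omissions against Pectin. B3galt5, B3gnt7 and Chst4 did not pass in Pectin_PFOS against Pectin, where Chst4 read 0.64 ± 0.41.

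The cytokine known to induce Fut2 was itself near the floor. Il22 had 0 to 11 counts per library and could not be tested, and Il23a, Il23r, Il6, Il17a and Il10 were also too low. Il22ra1, the epithelial receptor chain for interleukin 22, had r = −0.05 with Fut2. It was called higher in Pectin_PFOS against Pectin (1.33 on the log2 scale, edgeR adjusted p = 0.047), and the call was lost in 14 of 22 omissions of a library, with the replicate block and with no filter. Of the 19 listed signals and receptors 13 were tested. Il1b, an inflammatory cytokine, rose in Pectin against Control (2.52 ± 0.57, edgeR adjusted p = 0.0312), from 0.850 ± 0.361 to 4.91 ± 1.37 CPM (SD, n = 4 each), a call lost under library totals, on TPM values, and without Control 1, Control 2, Pectin 2 or Pectin 3. In Pectin_PFOS against PFOS 4 rose and 0 fell: Socs3 (1.98 ± 0.46, edgeR adjusted p = 0.00892), Il18 (1.40 ± 0.40, edgeR adjusted p = 0.0227), Stat3 and Myd88. Over all genes 7.7% were called higher and 8.33% lower in that comparison. Stat3 and Myd88 were lost under library totals and on TPM values, Stat3 also without PFOS 3, and Il18 without PFOS 2 or Pectin_PFOS 3. Stat3 carries the interleukin 22 signal to the nucleus, Socs3 is its feedback inhibitor, and Myd88 is the adaptor of most Toll-like receptors. Myd88 had the highest r with Fut2 of this list at 0.72, followed by Socs3 at 0.71, Il18 at 0.67 and Stat3 at 0.66. Within groups these were 0.43, 0.22, 0.10 and 0.28. In Pectin_PFOS against Pectin 4 were called higher (Stat3, Il10rb, Myd88 and Il22ra1) and 1, Ahr, lower, beside 11.4% and 9.43% of all genes. None of these 4 was called under library totals or on TPM values, while Ahr was kept there and lost without Pectin 1. Il10rb was also lost in 11 of 22 omissions of a library, Stat3 in 6 and Myd88 in 5. Myd88 overlaps Slc22a14 and Il10rb overlaps Gm21970 on the same strand, so the counts of Myd88 and Il10rb are uncertain. In Inulin_PFOS against PFOS 0 were called by edgeR, with 5 at an unadjusted p under 0.05 and 4 called by DESeq2. Over all genes edgeR called 1.84% higher and 0.799% lower there.

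Genes that bacteria and interleukin 22 induce in the epithelium varied with Fut2 more closely than the signals did. Of the 16 listed, 13 were tested. Of these, 11 rose in Inulin_PFOS against PFOS and 11 in Pectin_PFOS against PFOS, with 0 falling. Over all genes 1.84% and 7.7% were called higher there, and 0.799% and 8.33% lower. The list's median log2 differences were 3.32 and 3.36, below the Fut2 differences of 4.49 and 4.19. All genes had medians of −0.01 and −0.03. The list was chosen with earlier results of these data known. In Pectin against Control 4 rose (1.03% of all genes did): Duoxa2, Lrg1, Duox2 and Reg3a. Duoxa2 was lost without Pectin 3 and with only the groups compared, and Lrg1 on TPM values and with only the groups compared. Reg3a was lost on TPM values and without Control 1, Control 2, Control 3, Pectin 1, Pectin 3 or Pectin 4. In Pectin_PFOS against Pectin 1 rose, Nos2 (2.24 ± 0.54, edgeR adjusted p = 0.0102). Over all genes 11.4% were called higher in that comparison. In PFOS against Control all 13 tested read lower, with a median of −0.77, where 44.5% of all genes were positive with a median of −0.04. The 13 were measured in the same libraries, so they are not separate readings. Their spread in Control differed by gene: Reg3g ran from 951 to 21000 CPM and Lcn2 from 1.2 to 2.5 CPM. Of the 13, 0 were called by edgeR, with 3 at an unadjusted p under 0.05 and 0 called by DESeq2. Fut2 read −0.88 in the same comparison. In Inulin_PFOS against Inulin all 13 read higher, with a median of 1.45, where 49.4% of all genes were positive with a median of −0.01. Of the 13, 0 were called by edgeR, with 7 at an unadjusted p under 0.05 and 2 called by DESeq2. For the PFOS by inulin interaction all 13 were positive, with a median of 2.18, beside 2.58 for Fut2. That comparison uses the same Control, PFOS, Inulin and Inulin_PFOS libraries again. Over all genes 53.3% were positive, with a median of 0.05. Of the 13, 0 were called by edgeR, 11 had an unadjusted p under 0.05, and DESeq2 called 5.

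Duox2, an oxidase of the apical membrane that makes hydrogen peroxide, averaged 70.7 ± 22.3 CPM in Control, 57.3 ± 30.3 in PFOS, 313 ± 157 in Pectin and 583 ± 130 in Pectin_PFOS (SD, n = 4 each). It averaged 209 ± 151 in Inulin and 550 ± 111 in Inulin_PFOS (n = 3 each). Duox2 rose in Inulin_PFOS against PFOS (3.26 ± 0.49, edgeR adjusted p = 0.00257), in Pectin_PFOS against PFOS (3.35 ± 0.48, edgeR adjusted p = 0.00064) and in Pectin against Control (2.15 ± 0.45, edgeR adjusted p = 0.0266). The last of these was lost on TPM values and without Control 1 or Pectin 3. Saa3, a serum amyloid A of epithelium and macrophages, rose by 6.07 ± 1.01 in Inulin_PFOS against PFOS (edgeR adjusted p = 0.00482) and by 4.82 ± 0.96 in Pectin_PFOS against PFOS (edgeR adjusted p = 0.00432). Its PFOS libraries lay near the floor, at 0.145 to 0.411 CPM. Its Pectin_PFOS mean of 8.1 ± 8.83 CPM (SD, n = 4) was raised by replicate 2, which read 21.3 CPM. Reg3g, a lectin that kills Gram-positive bacteria, had r = 0.90 with Fut2, and Pigr, the carrier of secretory antibody, r = 0.86. The exceptions were Lcn2 (r = 0.22) and Ang4 (r = 0.11), which were called in none of the comparisons. Saa1 and Saa2 are close paralogues, so the split of reads between them is uncertain.

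Of the transcription factors of the gut epithelium, Elf3, an epithelial factor of the ETS family, had r = 0.70 with Fut2 (0.30 within groups) and was called in none of the comparisons. Cdx2, which sets intestinal identity, had r = 0.43 with Fut2 (0.12 within groups). It rose in Pectin_PFOS against Pectin (0.54 ± 0.19, edgeR adjusted p = 0.0481), a call lost under library totals (edgeR adjusted p = 0.289), on TPM values, with no filter, with only the groups compared, and in 17 of 22 omissions of a library. In Inulin_PFOS against PFOS 0 of the 14 factors were called by edgeR, with 2 at an unadjusted p under 0.05 and 1 called by DESeq2. Over all genes edgeR called 1.84% higher and 0.799% lower there.

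Over all 12444 ranked genes (named, with a mean of at least 1 CPM), those whose log2 CPM lay nearest to that of Fut2 over the 22 libraries were Prss32 (r = 0.96), Duox2, Saa2, Tat, B3galt5, Saa1, Ppt1, Saa3, Car4 and Cyp2d12 (r = 0.92). The median gene had r = −0.01, and 96 genes had r of 0.8 or more. Prss32, a serine protease, averaged 232 ± 68.0 CPM in Control, 200 ± 61.9 in PFOS, 396 ± 126 in Pectin and 590 ± 138 in Pectin_PFOS (SD, n = 4 each), and 348 ± 142 in Inulin and 586 ± 42.1 in Inulin_PFOS (n = 3 each). Its range was thus far narrower than that of Fut2. Tat encodes tyrosine aminotransferase, Car4 a membrane carbonic anhydrase and Ppt1 a lysosomal thioesterase. All 10 kept r of at least 0.89 when any single library was left out, and at least 0.899 without PFOS replicates 2 and 4, the 2 farthest from the Fut2 median. By Spearman's rho, 8 of the 10 were again among the first 10. Prss32 overlaps Prss41 and Ppt1 overlaps Cap1 on the opposite strand, and Cyp2d12 and Cyp2d34 belong to a multigene family, so their counts are uncertain. Fewer genes ran against Fut2, 4 having r of −0.8 or less. The lowest were Zfp354a (r = −0.85), Sfi1, Tprkb, Fam69b and Aadac (r = −0.80). Aadac, an esterase of enterocytes, averaged 8.92 ± 9.60 CPM in PFOS (n = 4) and 0.481 ± 0.146 in Inulin_PFOS (n = 3). Sfi1 overlaps Drg1 and Fam69b overlaps Gm20532 on the same strand, and Tprkb overlaps Nat8f1 on the opposite strand. The counts of Sfi1, Fam69b and Tprkb are therefore uncertain too.

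When the group means were removed, so that only differences between libraries of a group counted, 6 of the first 10 genes were the same. These were Prss32 (0.87), B3galt5 (0.84), Cyp2d12 (0.84), Tat (0.82), Ppt1 (0.82) and Saa3 (0.82). Cyp2d34 (0.89), Tac1 (0.87), Mal (0.82) and Cd38 (0.80) joined them. Tac1 encodes the neuropeptide substance P. Of the first 100 genes, 39 were shared between both rankings. At the other end stood Nek6 (−0.90), Anxa13 (−0.84), Ap1ar (−0.83), Isoc1 (−0.82) and Spns2 (−0.80). Their pooled r was between −0.63 and −0.23, so they varied against Fut2 between the libraries of a group more closely than over all 22. Nek6 is a mitotic kinase and Anxa13 an annexin of enterocytes.

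Markers of cell types and gut segments moved with Fut2 in part. All 8 epithelial markers were measured, and their summed level lay between 5150 and 13600 TPM. The score of that list (mean log2 CPM) had r = 0.59 with Fut2 over the 22 libraries and −0.12 within groups. Without the 2 libraries farthest from the median of the score, r was 0.59. It rested on the scaling, at 0.33 under library totals and 0.18 on TPM values. The summed epithelial level was 12600 to 13600 TPM in Pectin_PFOS, 10400 to 11000 in Inulin_PFOS, 5150 to 13500 in Control and 10100 to 13000 in PFOS. The goblet cell score had r = 0.64 and −0.17 within groups, and the plasma cell score 0.53 and 0.16. The enteroendocrine score had r = 0.05 over all libraries and −0.72 within groups, and the score of the proximal small intestine −0.07 and −0.63, so the libraries of a group with more of those transcripts had less Fut2. Gata4, a marker of the proximal small intestine, had r = −0.09 over all libraries and −0.68 within groups. It stood apart at 32.2 CPM in PFOS replicate 4, the library lowest for Fut2, and the weight of that library in this r was not tested. Of the 5 tested markers of the proximal small intestine, 2 had a positive r with Fut2 within groups. The ileum score (3 tested markers) had r = 0.42 over all libraries and 0.27 within groups. For the colon score (3 tested markers) these were 0.56 and 0.19. On TPM values the r over all libraries was 0.13 for the ileum and 0.39 for the colon. The enteric nerve score had r = −0.255 over all libraries and 0.55 within groups. Markers of the ileum summed to 5240 to 21000 TPM and those of the colon to 17.7 to 72.3 TPM. None of the marker genes was at 0 in all libraries. The part of cell make-up or of the position of the sampled piece in the Fut2 values was not tested.

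Technical measures of the libraries also varied with Fut2. Its log2 CPM had r = −0.61 with the TMM factor, 0.54 with the total count, −0.49 with the number of detected genes and −0.48 with the mitochondrial share. Their part in the result was not tested. The score of the induced genes kept its r with Fut2 under other scalings, at 0.94 with TMM, 0.93 with totals and 0.94 on TPM values. That of the 29 glycosyltransferases moved from 0.93 to 0.76 and 0.46, and that of the 15 fucose genes from 0.78 to 0.14 and 0.08. The r of these last lists as a whole therefore rested on the scaling, and their median member had r of 0.23 and 0.17 with Fut2.

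The genes beside Fut2 on chromosome 7 did not share its pattern. Besides Fut2, 10 genes that start within 100 kb of it were tested. Their r with Fut2 lay between −0.48 (Rasip1) and 0.48 (Rpl18, a ribosomal protein gene). Fam83e had r = 0.44 and Sult2b1 0.35. Sphk2 and Dbp, the latter a factor of the circadian clock, had 0.04 and −0.34. Mamstr, the nearest of them, had r = 0.01.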

How the data were processed

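RNA from intestinal tissue was sequenced on a DNBSEQ instrument as stranded libraries, per the labels. The authors deposited estimated counts per gene and TPM per gene, and HISAT, Bowtie2 and the GRCm39 build appear, without their roles, per the submitters' processing notes. Coordinates in the deposited tables are those of GRCm38. No source used here gives the counting program or its use of strand. Estimated counts were rounded and filtered with filterByExpr (15763 genes), scaled by TMM and tested in 1 model over all 22 libraries with the robust quasi-likelihood test of edgeR 4.0.16 (R 4.3.3), adjusted by Benjamini-Hochberg, called at 0.05. Levels are CPM, and correlations use log2 CPM with a prior count of 2. Deposited TPM values were tested as an alternative with limma 3.58.1 at pseudocounts of 1 and 0.1, and DESeq2 1.42.0 was another. Other alternatives were DESeq2 size factors, library totals, no filter, a replicate block, only the groups compared, and each library left out. The methods were tested on simulated data.

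Genes were named by rule: fucose genes with a call, up to 4 per other list and comparison by smallest p, up to 4 per list by size of r, the 10 highest and 5 lowest r pooled and within groups, and tested genes starting within 100 kb. The rest were named after their values were seen. The gene and the lists were chosen with earlier results of these data known. The closest pair of libraries differed by a chi-square of 26.8 per degree of freedom, so none was taken for a duplicate. Some results on transcription factors are not reported here.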

Additional observations from a re-analysis of the deposited data

Results flagged for a closer look

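In groups of 4, a library counted as standing apart when its gap to the nearest value, as a share of the group's range, passed Dixon's 95% limit. Over 22 genes and 88 groups 8 did, and chance gives about 1 in 20. Fut2 had none. Chst4 in Control replicate 4 read 5.76 CPM, and Duox2 in Control replicate 1 read 37.6 CPM. Gata4 in PFOS replicate 4 read 32.2 CPM, and Nek6 in Pectin replicate 2, the library low for Fut2, read 54.8 CPM. Saa3 in Control replicate 3, the cellulose library highest for Fut2, read 3.1 CPM. In Pectin_PFOS replicate 2, the highest library of all for Fut2, Saa3 read 21.3 CPM. Slc35c1 read 56.8 CPM in PFOS replicate 1 and 75.4 CPM in Pectin replicate 4.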

How the results depend on the processing

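Fut2 kept its sign in all 10 comparisons. Of 2310 single-gene values over 77 calls, 1948 stayed past the threshold and 362 did not, and 0 reversed. On TPM values with a pseudocount of 1, Fut2 in Pectin_PFOS against PFOS read 3.02. With a library left out, Fut2 ranged from 0.67 to 2.60 in Inulin against Control, from 1.29 to 2.97 in Inulin_PFOS against Inulin, and from 1.89 to 3.81 for the PFOS by inulin interaction. The cause of the following changes was not tested.

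Counts of fucose genes called higher were 1 under DESeq2 in Inulin_PFOS against Inulin and for the PFOS by inulin interaction. They were 1 in Pectin_PFOS against Pectin under library totals and TPM with either pseudocount, and 1 in Pectin_PFOS against PFOS on TPM. In Inulin_PFOS against PFOS they were 1 under DESeq2 size factors, library totals, no filter, the replicate block and TPM, and for the PFOS average 0 under totals and TPM. Counts called lower were 1 under DESeq2 in Inulin against Control, 0 on TPM with pseudocount 1 in Pectin_PFOS against Pectin, 2 on TPM and 1 with only the groups compared in Inulin_PFOS against PFOS, and 3 under totals and TPM in Pectin_PFOS against PFOS. With a library left out, higher counts were 0 to 1 in Inulin_PFOS against Inulin and for the PFOS average, 1 to 4 in Pectin_PFOS against Pectin and 1 to 2 in Inulin_PFOS against PFOS, and lower counts 0 to 1 in Inulin against Control.

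Induced genes called higher were 3 under DESeq2 in Inulin against Control, 1 on TPM and 2 with only the groups compared in Pectin against Control, and 1 with the block and 2 under DESeq2 in Inulin_PFOS against Inulin. They were 2 with only the groups compared in Pectin_PFOS against Pectin, and under DESeq2 5 and 1 for the interactions with inulin and pectin. The count lower in Pectin_PFOS against Pectin was 1 under totals, DESeq2 and only the groups compared. With a library left out, the higher counts were 0 to 1 in Inulin against Control, Inulin_PFOS against Inulin and the PFOS average, 1 to 6 in Pectin against Control, 1 to 2 in Pectin_PFOS against Pectin, 6 to 11 in Inulin_PFOS against PFOS and 0 to 4 for the interaction with inulin, and the lower count in Pectin_PFOS against Pectin 0 to 1.

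Over all genes, calls in Pectin against Control numbered 313 (48 to 856 over the alternatives), in Inulin_PFOS against Inulin 25 (0 to 506), in Inulin_PFOS against PFOS 416 (73 to 3101), in Pectin_PFOS against PFOS 2526 (1265 to 3918), in Pectin_PFOS against Pectin 3277 (1335 to 4051) and for the PFOS average 25 (8 to 206). In Inulin against Control 0 became 794 without Control 1, and for the interaction with inulin 767.

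With the replicate number as a block, Fut2 read −0.83 for PFOS against Control, 1.80 for Inulin and 2.66 for Pectin against Control, 1.82 for Inulin_PFOS against Inulin, 0.70 for Pectin_PFOS against Pectin, 4.45 and 4.19 for the fibres under PFOS, 2.64 and 1.53 for the interactions and 0.56 for the PFOS average. Libraries of the same number had a mean correlation of deviations of 0.034 over 51 pairs, beside −0.013 over 150 pairs of other numbers. Of the 22 libraries, 5 matched best outside their group with their own number. The number is the biological replicate number, which differs in some libraries from that in the library name. Whether libraries of the same number share anything else was not tested. With 3 or 4 libraries a group, the spread of Fut2 within groups limits what these comparisons resolve.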
